A study of Mus musculus with 8 samples.

Results

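The RNA recovered with hnRNP L from untreated p53-/- mouse embryonic stem cells was set against that recovered from untreated p53+/+ cells, with 1 RNA immunoprecipitation (RIP) library a side, 2 of the 8 libraries of the series. Both libraries were chosen by their labels alone. With 1 library a side no difference could be tested, and every value describes these libraries. The p53-/- cells carry targeted copies of Trp53, which encodes the tumour suppressor p53, and the p53+/+ cells are wild type at that gene. Both are embryonic stem cells of strain C57BL/6X129Sv mix, cultured with serum and leukemia inhibitory factor, and neither received a drug. Nothing in the labels says how many lines or clones stand behind a genotype. Each genotype also had an untreated input library of polyadenylated RNA, and a RIP and an input library after 0.5 uM Adriamycin (doxorubicin, which breaks DNA) for 8 hours. Libraries made with a control antibody were not used here.

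hnRNP L is an RNA-binding protein of the nucleus that favours CA-rich stretches of RNA and is known for its effects on splicing, polyadenylation and transcript stability. In a RIP experiment the protein is pulled down with an antibody and the RNA that comes with it is sequenced. A RIP library therefore holds RNA bound by the protein, RNA held in larger complexes with it, and RNA carried over, and its levels also follow how much of each RNA the cells contain.

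The values are FPKM, the fragments on a transcript scaled by its length and by the reads mapped, as deposited for 30769 transcript records and summed here into 23560 genes. The untreated RIP libraries held 3.56 Gb of bases on annotated records in p53-/- cells and 3.21 Gb in p53+/+ cells. The share of material on annotated records was estimated at 65.2% in the p53-/- RIP library and 48.9% in the p53+/+ RIP library, against 90.6% in p53-/- input and 90.2% in p53+/+ input, both untreated. This estimate holds only if FPKM was taken over all mapped reads. Because of that gap, FPKM was scaled between libraries by the median ratio (factor 0.901 for p53-/- RIP and 0.589 for p53+/+ RIP). A difference below is log2(scaled FPKM + 1) in p53-/- minus that in p53+/+, which understates changes of genes near 1 FPKM. The 11847 genes with a mean of 1 scaled FPKM or more were kept, and a difference of 1 or more in size was counted. Levels are given in FPKM as deposited and differences after scaling, so a small excess in p53-/- RIP as deposited can go with a negative difference.

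Trp53, the targeted gene (mm9 chromosome 11, 69393861 to 69405375), stood at 122 FPKM in p53-/- RIP and 57.4 FPKM in p53+/+ RIP, and at 140 FPKM in p53-/- input and 236 FPKM in p53+/+ input. After Adriamycin it was at 124 FPKM in p53-/- RIP and 32.1 FPKM in p53+/+ RIP, with inputs at 121 FPKM in p53-/- cells, against 173 FPKM in p53+/+ cells. The libraries labelled p53-/- thus held Trp53 RNA, at a lower level than p53+/+ in both input pairs and at a higher one in both RIP pairs. After scaling, the RIP level over the input level was 1.29 in untreated p53-/- cells and 0.546 in untreated p53+/+ cells. Its 2 transcript records, of 1868 and 1772 bases, were both higher in the p53-/- RIP library, at 35 and 87.0 FPKM, than in the p53+/+ RIP library, at 10.1 and 47.3 FPKM. The labels do not say which part of the gene was targeted, so the RNA level does not check the genotype. The RNA of Hnrnpl itself, the antibody's target, was at 104 FPKM in p53-/- RIP and 94.1 FPKM in p53+/+ RIP, with inputs at 173 in p53-/- and 260 FPKM in p53+/+, a RIP difference of -0.47 and an input difference of -0.59. Its paralog Hnrnpll was at 5.96 FPKM in p53-/- RIP and 5.17 FPKM in p53+/+ RIP as deposited, and after scaling at 6.61 in p53-/- RIP and 8.77 in p53+/+ RIP, a difference of -0.36.

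The 2 pools of RNA were alike in their bulk and differed at a minority of genes. Of the 11847 genes kept, 465 (3.93%) were higher in p53-/- RIP by 1 or more and 645 (5.44%) were lower, together 9.37%. The central 9 in 10 genes lay between -1.04 and 0.91, around a median of -0.05. Across 11787 genes the log2 levels of both libraries correlated with r = 0.94 and rho = 0.92, given as a description, since genes of 1 pair of libraries are not replicates. The untreated inputs of the 2 genotypes gave r = 0.96. The balance of directions depended on the scaling. With FPKM as deposited, 1457 genes were higher and 184 lower, and the median of all genes was 0.43. With each library scaled to the same sum, 715 were higher and 468 lower. Differences below are therefore best read against the median of all genes.

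Most of the genes past 1 stood on the same side in the other library pairs. Of the 465 genes higher in p53-/- RIP, 300 (64.5%) were also higher by 1 or more in the Adriamycin RIP pair, where 8.8% of all genes were. In the untreated input pair 254 of them (54.6%) were higher by 1 or more, where 3.11% of all genes were. Of the 645 genes lower in p53-/- RIP, 464 (71.9%) were lower by 1 or more in the Adriamycin RIP pair, against 14.7% of all genes. In the untreated input pair 197 of them (30.5%) were lower by 1 or more, against 2.44% of all genes. The lower set thus had the smaller share that was past 1 in input. With 1 FPKM added, genes under 1 scaled FPKM in both untreated inputs cannot differ by 1 there. They were 15.2% of the lower genes and 7.53% of the higher genes, so this contrast is partly set by input level. In the sign alone, 445 of the higher genes and 625 of the lower genes had the same direction in input, where 5638 of all 11847 genes (47.6%) were above 0 and 6185 (52.2%) below it. The authors gave a lower and an upper bound for each estimate. Among genes with 1 transcript record these bounds lay apart for 354 of 366 higher genes and 491 of 499 lower genes, against 58.8% of all such genes. The genes past 1 were chosen by the same estimates that the bounds surround, so their larger share follows largely from that choice. These bounds cover the estimate within a library and say nothing of the spread between cultures.

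**Figure D1:**
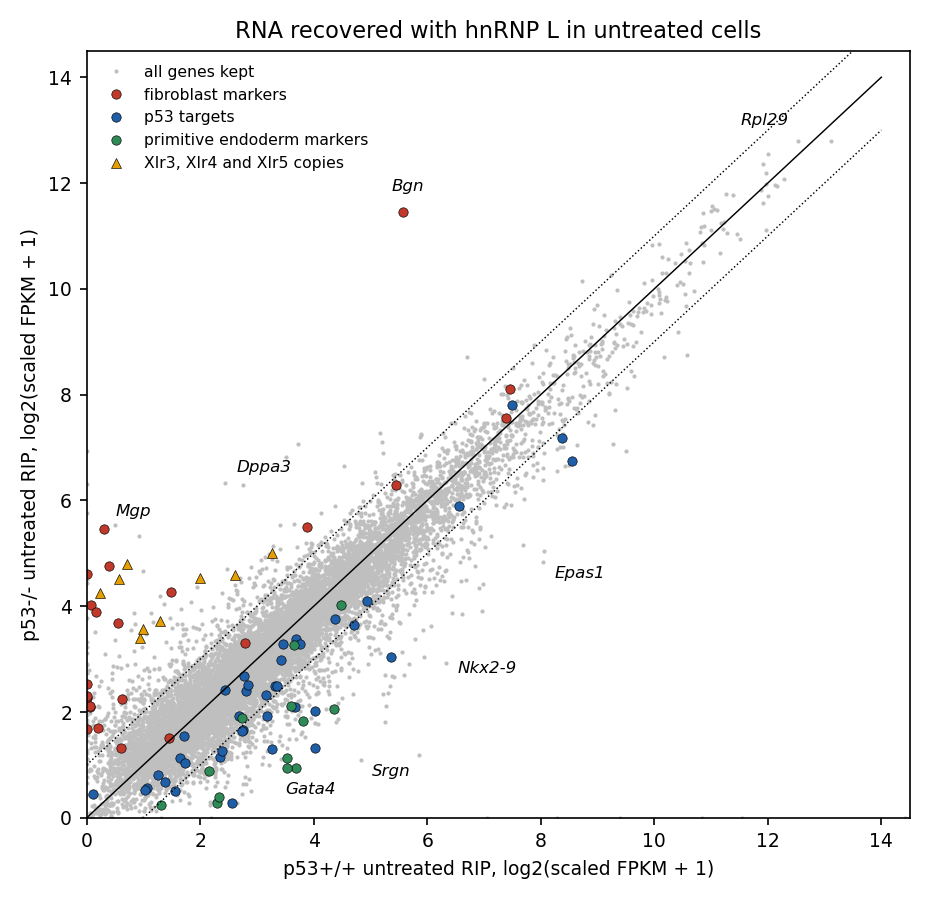
Level of each of the 11847 genes kept in the p53-/- untreated RIP library (vertical axis) and the p53+/+ untreated RIP library (horizontal axis), both as log2(scaled FPKM + 1); the solid line marks equal levels and the dotted lines a difference of 1. Fibroblast markers and the Xlr3, Xlr4 and Xlr5 copies lie above the diagonal, most primitive endoderm markers and p53 targets below it, and Bgn stands apart at 2508.5 FPKM in p53-/- against 27.4 FPKM in p53+/+.

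Messages for ribosomal proteins, the structural proteins of the ribosome, were the largest class in both pools. They took 28.5% of the summed FPKM in p53-/- RIP and 24.6% in p53+/+ RIP. With records under 300 bases left out of the sum, the shares were 28.3% in p53-/- RIP and 26.1% in p53+/+ RIP, against 32.1% in p53-/- input and 32.9% in p53+/+ input. The member with the highest level in p53-/- RIP was Rpl23a, at 6427 FPKM in p53-/- RIP and 3490 FPKM in p53+/+ RIP. Rpl29 was at 6405 FPKM in p53-/- RIP and 5215 FPKM in p53+/+ RIP, but at 222 FPKM in p53-/- input and 228 FPKM in p53+/+ input. Its level was thus about the same in both inputs and far higher in both RIP libraries, with a scaled RIP level 42.6 times that of input in p53-/- cells and 51.3 times in p53+/+ cells. Of the 78 ribosomal protein genes none was higher by 1 or more and 1 was lower, with a median difference of -0.12. That 1 was Rps27, at 9.72 FPKM in p53-/- RIP and 35.1 FPKM in p53+/+ RIP, whose locus overlaps Rps27rt, so that reads may be split between them.

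Other abundant messages also held similar places in both pools. Npm1, which encodes the nucleolar chaperone nucleophosmin, was at 5421 FPKM in p53-/- RIP and 2410 FPKM in p53+/+ RIP, a difference of 0.56. Capns1, the small regulatory subunit of the calpain proteases, was at 1981 FPKM in p53-/- RIP and 2355 FPKM in p53+/+ RIP, with inputs at 220 in p53-/- and 309 FPKM in p53+/+. Among the 100 genes with the largest share in each RIP library, short RNAs left out, 87 were in both lists, against 94 for the 2 untreated inputs. The RIP and the untreated input library of the same genotype shared 70 of their top 100 genes in p53-/- cells and 63 in p53+/+ cells. The pools therefore shared more of their top genes with each other than either did with its own input. The 100 leading genes took 42.1% of the sum in p53-/- RIP and 39.4% in p53+/+ RIP once records under 300 bases were left out, and 178 genes in p53-/- and 203 in p53+/+ made up 50% of it.

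With records under 300 bases left out of the sum, the p53-/- pool leaned to shorter transcripts. Records of 300 to under 1000 bases took 41.5% of the p53-/- RIP sum and 38.0% of the p53+/+ RIP sum, with inputs at 50.8% in p53-/- and 50.2% in p53+/+ cells. Records of 4000 to under 8000 bases took 7.01% in p53-/- RIP and 8.33% in p53+/+ RIP, and records of 8000 bases or more 0.966% in p53-/- RIP and 1.22% in p53+/+ RIP. The mean record length weighted by share was 1766 bases in p53-/- RIP and 1895 bases in p53+/+ RIP, against 1411 bases in the p53-/- input and 1423 bases in the p53+/+ input. With all records the means were 1749 bases in p53-/- RIP and 1770 bases in p53+/+ RIP, and records under 300 bases lay the other way, at 1.10% of the p53-/- RIP sum and 6.95% of the p53+/+ RIP sum. Gene by gene, genes spanning 100 kb or more had a median difference of -0.23, and 10.2% of those 982 genes were lower, against 5.44% of all genes. In untreated input their median was -0.11, with 4.18% lower, against 2.44% of all genes. The 295 single-exon genes of 300 bases or more had a median of 0.33, and 10.8% of them were higher, against 3.93% of all genes. Their median in untreated input was 0.08. With histone genes left out, 250 remained, with medians of 0.32 in RIP and -0.02 in input. The share of material off the annotated records moved with the RIP values, being larger in p53+/+ RIP, and its part in them was not tested.

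**Figure D2:**
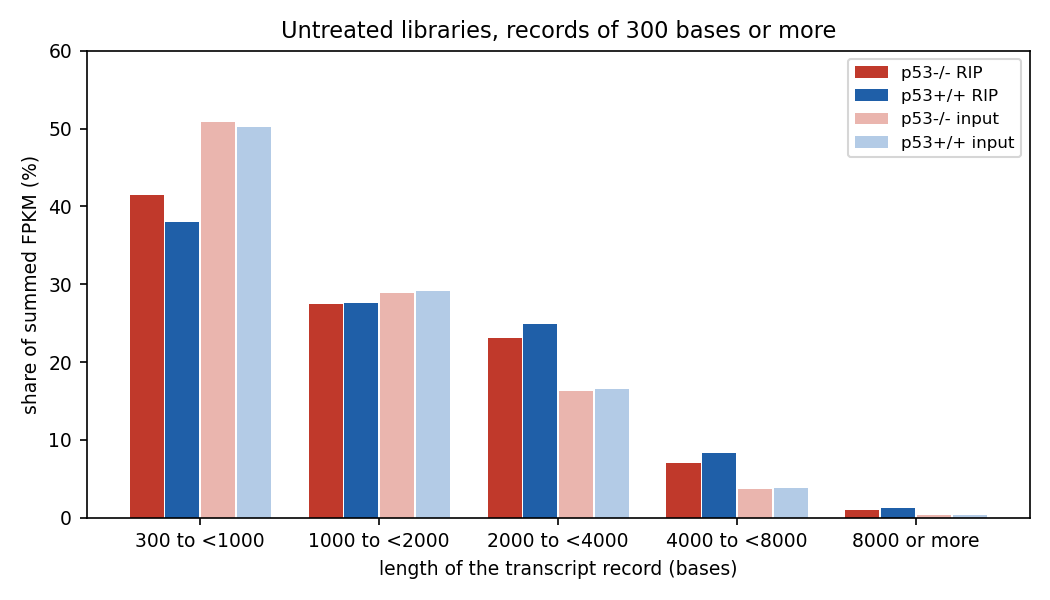
Share of the summed FPKM, in percent, held by transcript records of 5 length classes in the p53-/- and p53+/+ untreated RIP libraries and in the corresponding inputs, records under 300 bases left out. Both RIP libraries hold more long records than the inputs, and the p53-/- RIP library lies between the p53+/+ RIP library and the inputs in the shortest class (41.5% in p53-/- RIP, 38.0% in p53+/+ RIP and 50.8% in p53-/- input).

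Among genes with a symbol that were also higher by 1 or more in Adriamycin RIP, short RNAs left out, the 10 furthest above in p53-/- RIP were Bgn, Mgp, Itga11, S100a4, Col1a1, Col1a2, Xlr5a, Xlr5b, Xlr5c and Dppa3. Bgn, which encodes the matrix proteoglycan biglycan (mm9 chromosome X, 70728974 to 70741275), was at 2508.5 FPKM in p53-/- RIP and 27.4 FPKM in p53+/+ RIP. It was at 2360 FPKM in p53-/- Adriamycin RIP and 89.7 FPKM in p53+/+ Adriamycin RIP, and at 119 FPKM in p53-/- input and 1.13 FPKM in p53+/+ input. All 4 p53-/- libraries were above their p53+/+ counterparts, and in both genotypes the RIP level was far above input, by 31.1 times in p53-/- and 54.3 times in p53+/+ untreated cells after scaling. Alone, Bgn made up 0.673% of the summed FPKM of the p53-/- RIP library and 0.00991% of the p53+/+ RIP library. The difference was 5.88 in untreated RIP, 3.88 in Adriamycin RIP and 5.61 in untreated input.

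Itga11, a collagen-binding integrin chain, was at 41.1 FPKM in p53-/- RIP and 0.242 FPKM in p53+/+ RIP, with inputs of only 2.77 FPKM in p53-/- and 0.0297 FPKM in p53+/+ cells. Like Bgn it was far higher in RIP than in input in p53-/- cells, by 22 times after scaling. Other matrix genes were more abundant in the p53-/- input than in its RIP library. Mgp, matrix Gla protein, an inhibitor of calcification, was at 38.6 FPKM in p53-/- RIP and 0.139 FPKM in p53+/+ RIP, with inputs at 112 in p53-/- and 0.128 FPKM in p53+/+. Col1a1, the alpha 1 chain of type I collagen, was at 23.6 FPKM in p53-/- RIP and 0.188 FPKM in p53+/+ RIP, with inputs at 61.0 in p53-/- and 0.247 FPKM in p53+/+. Col1a2, its partner chain, was at 13.8 FPKM in p53-/- RIP and 0.0354 FPKM in p53+/+ RIP. S100a4, a calcium-binding protein of motile and mesenchymal cells, was at 21.1 FPKM in p53-/- RIP and was listed at 0 in p53+/+ RIP.

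Most of the fibroblast markers kept were on the same side as these genes. Of 26 listed, 23 were kept, and 17 of these were higher by 1 or more in p53-/- RIP and none lower, with a median of 2.07, against -0.05 for all genes. The filter took the mean over all 8 libraries, so a marker near 0 in every p53+/+ library was kept only through p53-/- libraries. Col1a2 was one, at 0.147 scaled FPKM or less in every p53+/+ library. Such genes could not count as lower, so these counts are partly built in. The summed level of the list was 3208 FPKM in p53-/- RIP and 269 FPKM in p53+/+ RIP, and 1290 FPKM in p53-/- input and 421 FPKM in p53+/+ input. Col3a1, Dcn, Fap, Lox, Lum, Postn and S100a4 were listed at 0 in p53+/+ RIP. Col3a1, type III collagen, was at 3.46 FPKM, Postn, periostin, at 3.54 FPKM and Lox, the collagen cross-linking enzyme lysyl oxidase, at 4.30 FPKM in p53-/- RIP. Other kept markers stayed under 1: Sparc was at 169 FPKM in p53-/- RIP and 98.6 FPKM in p53+/+ RIP, a difference of 0.16, and Pdgfrb at 1.68 in p53-/- and 1.02 FPKM in p53+/+. In the input pair the median was 2.84 with 17 higher, and in the Adriamycin RIP pair it was 1.83. The list without Bgn took 0.188% of the p53-/- RIP sum and 0.0875% of the p53+/+ RIP sum. In such bulk libraries more cells of a type and more RNA per cell cannot be told apart, and the part of these markers in the other differences was not tested.

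**Figure D3:**
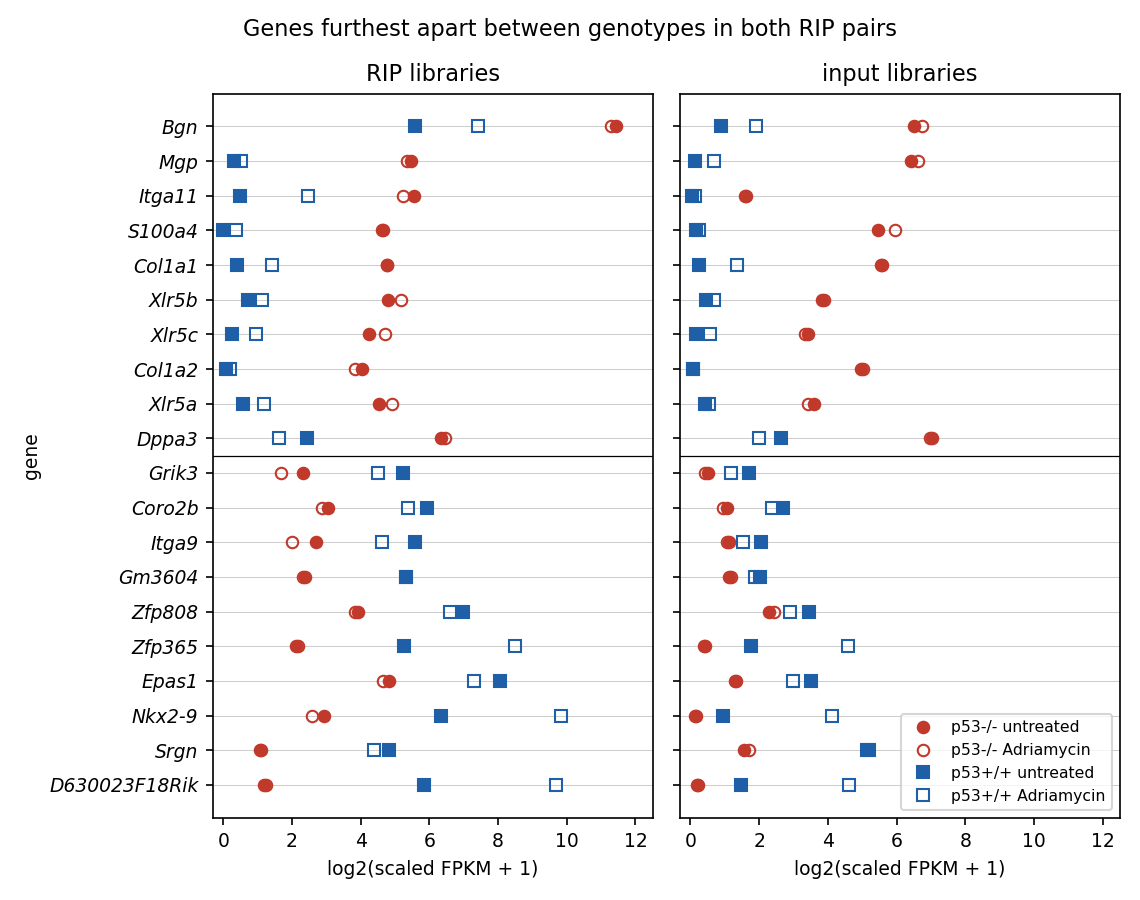
Level, as log2(scaled FPKM + 1), of the 10 genes furthest above (upper rows) and the 10 furthest below (lower rows) in p53-/- untreated RIP among those that differed by 1 or more the same way after Adriamycin, in the RIP libraries (left) and the inputs (right). The rows were chosen by both RIP differences, so the genotypes lie apart in the RIP libraries by that choice. In the inputs, too, the p53-/- points lie together and apart from the p53+/+ points in every row. For Nkx2-9, D630023F18Rik and Zfp365 the Adriamycin p53+/+ point lies furthest out.

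A cluster of X-linked genes close to Bgn was higher in p53-/- cells as a whole. Xlr3, Xlr4 and Xlr5 are families of near-identical X-linked lymphocyte-regulated genes, related to the meiotic protein SYCP3. Their 9 copies lie within 216 kb (mm9 chromosome X, 70319684 to 70535854), which ends 193 kb before Bgn. They were singled out after their values were seen, because Xlr5a, Xlr5b and Xlr5c were all among the 10 genes furthest above. All 9 copies were higher by 1 or more, against 3.93% of all genes, with differences of 1.73 to 4.09 and a median of 2.54. The 3 Xlr5 copies led to the choice of the set, so their part in this count is built in. Levels of the 9 copies ran between 8.63 and 27.9 FPKM in p53-/- RIP and between 0.107 and 5.09 FPKM in p53+/+ RIP. Xlr5b was at 24.2 FPKM in p53-/- RIP and 0.372 FPKM in p53+/+ RIP, with inputs at 17.7 in p53-/- and 0.495 FPKM in p53+/+. The input differences of the 9 copies ran between 1.82 and 3.38, and those of the Adriamycin RIP pair between 1.27 and 4.03. Reads of such copies can be split or assigned to the wrong member, so the values of single copies are uncertain.

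Sequences just around the listed start of each copy show where these windows are alike and where they are not. All 9 matched the RefSeq promoter table (build GRCm38.p6, which differs from the build of the files), which gives 250 bases before and 50 after each gene's start. The 3 Xlr4 and the 3 Xlr5 copies are shown, the Xlr4 copies as a family with a shared run and the Xlr5 copies as one in which the window of Xlr5c lacks it. Capitals mark the longest run shared by all copies of Xlr4, 90 bases, and by Xlr5a and Xlr5b, 255 bases. The 3 Xlr3 copies, not shown, shared a run of 58 bases.

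Xlr4a, chrX:73082458-73082757, minus strand: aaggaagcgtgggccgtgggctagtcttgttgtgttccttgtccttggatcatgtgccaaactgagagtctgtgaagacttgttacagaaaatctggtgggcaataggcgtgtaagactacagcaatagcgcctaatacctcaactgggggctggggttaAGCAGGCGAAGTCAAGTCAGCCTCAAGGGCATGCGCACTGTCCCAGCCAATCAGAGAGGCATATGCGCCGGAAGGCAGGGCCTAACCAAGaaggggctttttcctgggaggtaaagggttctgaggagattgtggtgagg
Xlr4b, chrX:73214083-73214382, plus strand: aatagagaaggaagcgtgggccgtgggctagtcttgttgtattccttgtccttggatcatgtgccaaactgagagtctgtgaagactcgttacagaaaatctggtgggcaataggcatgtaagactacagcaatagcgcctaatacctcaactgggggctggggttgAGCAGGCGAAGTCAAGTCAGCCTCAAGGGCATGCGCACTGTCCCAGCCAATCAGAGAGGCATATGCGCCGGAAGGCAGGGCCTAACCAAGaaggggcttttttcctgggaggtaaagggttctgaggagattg
Xlr4c, chrX:73243081-73243380, minus strand: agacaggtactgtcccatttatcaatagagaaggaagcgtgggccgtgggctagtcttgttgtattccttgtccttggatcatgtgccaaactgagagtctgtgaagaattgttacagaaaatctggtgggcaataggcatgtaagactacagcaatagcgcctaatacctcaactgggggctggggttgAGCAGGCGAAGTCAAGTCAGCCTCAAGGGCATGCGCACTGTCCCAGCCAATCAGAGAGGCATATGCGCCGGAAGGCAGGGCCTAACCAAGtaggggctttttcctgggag
Xlr5a, chrX:73117653-73117952, minus strand: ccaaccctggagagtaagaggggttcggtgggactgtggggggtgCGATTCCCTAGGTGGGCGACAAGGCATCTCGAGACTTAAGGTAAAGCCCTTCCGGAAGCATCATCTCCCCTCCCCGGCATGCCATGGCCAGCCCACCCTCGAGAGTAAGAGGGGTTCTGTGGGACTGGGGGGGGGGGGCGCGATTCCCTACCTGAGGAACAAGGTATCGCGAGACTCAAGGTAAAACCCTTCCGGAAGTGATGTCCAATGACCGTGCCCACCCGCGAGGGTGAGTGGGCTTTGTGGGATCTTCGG
Xlr5b, chrX:73148591-73148890, plus strand: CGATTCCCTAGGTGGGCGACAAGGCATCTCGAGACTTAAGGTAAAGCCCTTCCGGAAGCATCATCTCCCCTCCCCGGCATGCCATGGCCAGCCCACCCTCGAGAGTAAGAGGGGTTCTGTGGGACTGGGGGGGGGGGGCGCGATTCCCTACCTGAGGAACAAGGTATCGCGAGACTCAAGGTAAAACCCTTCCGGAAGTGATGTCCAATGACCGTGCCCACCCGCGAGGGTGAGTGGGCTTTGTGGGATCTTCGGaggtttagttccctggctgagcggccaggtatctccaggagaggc
Xlr5c, chrX:73290466-73290765, minus strand: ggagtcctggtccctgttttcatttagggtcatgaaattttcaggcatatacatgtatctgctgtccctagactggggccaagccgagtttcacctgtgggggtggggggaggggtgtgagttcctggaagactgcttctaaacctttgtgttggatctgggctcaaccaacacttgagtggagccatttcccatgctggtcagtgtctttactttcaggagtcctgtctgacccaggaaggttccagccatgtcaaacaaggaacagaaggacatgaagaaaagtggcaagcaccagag

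The run of Xlr5a and Xlr5b covers most of the window shown, while the window of Xlr5c does not hold that run. The Xlr5c record is only 540 bases long, against 1650 for Xlr5a and 1134 for Xlr5b, so its listed start may not correspond to theirs. The lack of the run in its window therefore does not show that its promoter differs. The Xlr5c gene was at 16.3 FPKM in p53-/- RIP and 0.107 FPKM in p53+/+ RIP. On chromosome X as a whole, 53 of 410 genes (12.9%) were past 1 on the higher side, or 10.97% without the 9 copies, against 3.93% of all genes.

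Dppa3 (Stella), a maternal factor that protects DNA methylation in the zygote and marks naive pluripotent and germ cells, was the member of the pluripotency list with the largest difference. It was at 71.7 FPKM in p53-/- RIP and 2.60 FPKM in p53+/+ RIP, with inputs at 172 in p53-/- and 6.92 FPKM in p53+/+, and the Adriamycin RIP libraries were at 81.9 FPKM in p53-/- cells, against 1.10 FPKM in p53+/+ cells. Its 4 p53-/- values were all far above its 4 p53+/+ values. The pluripotency list as a whole leaned the other way in the untreated pairs. Of 34 genes, 2 were higher and 5 lower, with a median of -0.44 in RIP and -0.56 in input. After Adriamycin the list did not lean that way, with a median of 0.15 in RIP and 0.20 in input. Lefty2, a secreted inhibitor of Nodal signalling, was at 27.7 FPKM in p53-/- RIP and 4.90 FPKM in p53+/+ RIP. Tfcp2l1, a transcription factor of naive pluripotency, was at 8.85 FPKM in p53-/- RIP and 22.5 FPKM in p53+/+ RIP, and Tbx3, a T-box factor of the same network, at 16.3 in p53-/- and 32.1 FPKM in p53+/+. The core factor Pou5f1 (Oct4) was at 221 FPKM in p53-/- RIP and 249 FPKM in p53+/+ RIP, and Nanog at 30.2 in p53-/- and 13.9 FPKM in p53+/+, so the defining markers of the labelled cell type were present in both.

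Several further groups sat above the median of all genes in untreated p53-/- RIP, where 3.93% of all genes were higher and 5.44% lower by 1 or more. Of 23 imprinted genes, expressed by parental origin, 5 were higher and none lower (median 0.47). Igf2, the fetal growth factor, was at 100 FPKM in p53-/- RIP and 6.16 FPKM in p53+/+ RIP, with inputs at 27.8 in p53-/- and 1.65 FPKM in p53+/+, and Nnat, neuronatin, at 15.0 FPKM in p53-/- RIP and 2.86 FPKM in p53+/+ RIP. Among 11 trophoblast and epithelial markers 3 were higher and none lower (median 0.72), all of them keratins of simple epithelia. Krt8 was at 20.0 FPKM in p53-/- RIP and 3.25 FPKM in p53+/+ RIP, and its partner Krt18 at 18.2 in p53-/- and 3.01 FPKM in p53+/+, while Krt19 differed by 1.63. Of 25 immediate early and stress genes 10 were higher and 2 lower (median 0.73). Ier3, an early response gene linked to survival, was at 41.4 FPKM in p53-/- RIP and 6.86 FPKM in p53+/+ RIP, and Hmox1, heme oxygenase, at 25.8 in p53-/- and 5.08 FPKM in p53+/+. The lower ones were Myc, at 13.8 FPKM in p53-/- RIP and 24.1 FPKM in p53+/+ RIP, and Gadd45a, at 18.1 in p53-/- and 25.9 FPKM in p53+/+. In the untreated input pair 3 genes of that list were higher and 1 lower, so its excess past 1 was wider in untreated RIP. In Adriamycin RIP 7 were higher and 5 lower, with a median of 0.23, against 8.8% higher and 14.7% lower of all genes. In Adriamycin input 5 were higher and 5 lower, with a median of 0.08. Fibroblast markers stood higher in the same libraries, and their part in these groups was not tested.

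The medians of long noncoding RNAs and histone genes lay above that of all genes in RIP. Of 22 long noncoding RNAs 5 were higher and 1 lower, with a median of 0.57 in RIP, 0.91 in Adriamycin RIP and 0.23 in input. Neat1, the scaffold RNA of paraspeckles, was at 25.6 FPKM in p53-/- RIP and 4.37 FPKM in p53+/+ RIP, with inputs at 75.8 in p53-/- and 32.3 FPKM in p53+/+. Snhg4, a small nucleolar RNA host gene, was at 14.8 FPKM in p53-/- RIP and 2.94 FPKM in p53+/+ RIP, a difference of 1.54 against 0.45 in input. Dancr, another noncoding RNA, differed by 1.16 in RIP and by -0.07 in input. The lower one was Pvt1, a neighbour of Myc and a known p53 target, at 2.51 FPKM in p53-/- RIP and 4.72 FPKM in p53+/+ RIP. Of 48 replication-dependent histone genes 7 were higher in RIP and 6 in input and none was lower in either, with a median of 0.68 in RIP and 0.41 in input. Above 0 were 42 of the 48 in RIP and 47 in input. H1f2, a linker histone, was at 9.05 FPKM in p53-/- RIP and 1.92 FPKM in p53+/+ RIP, a difference of 1.37 in RIP and 1.52 in input. Most of these histone messages lack a poly(A) tail, so their values are those of the part that the libraries captured, and histone copies can share reads.

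Among genes with a symbol that were also lower by 1 or more in Adriamycin RIP, short RNAs left out, the 10 furthest below in p53-/- RIP belonged to no one list. D630023F18Rik, a gene with no established role, was at 1.15 FPKM in p53-/- RIP and 33.5 FPKM in p53+/+ RIP, and at 1.31 in p53-/- and 436 FPKM in p53+/+ after Adriamycin. Its inputs were at 0.193 FPKM in p53-/- cells, against 2.38 FPKM in p53+/+ cells, and after Adriamycin at 0.227 FPKM in p53-/- cells, against 34.0 FPKM in p53+/+ cells. It was thus higher in p53+/+ in all 4 pairs. After scaling, the treated p53+/+ input was at 23.5 and the untreated p53+/+ RIP library at 56.9. Nkx2-9, a homeobox factor of the ventral neural tube, was at 5.97 FPKM in p53-/- RIP and 47.0 FPKM in p53+/+ RIP, with inputs at 0.152 in p53-/- and 1.23 FPKM in p53+/+. In both genotypes its RIP level was high over its input level, by 58.3 times in p53-/- and 86.0 times in p53+/+ cells after scaling. Epas1, which encodes the hypoxia-inducible factor HIF-2alpha, was at 24.8 FPKM in p53-/- RIP and 155 FPKM in p53+/+ RIP, with inputs at 2.02 in p53-/- and 13.9 FPKM in p53+/+. Srgn, the granule proteoglycan serglycin, was at 1.01 FPKM in p53-/- RIP and 16.2 FPKM in p53+/+ RIP, with higher levels in input than in RIP in both genotypes. The other 6 were Zfp365, Zfp808, Gm3604, the integrin chain Itga9, the coronin Coro2b and the kainate receptor subunit Grik3, with differences between -3.15 and -2.89. For Zfp808 the RIP level was 3.62 times input in p53-/- cells and 12.6 times input in p53+/+ cells.

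Primitive endoderm markers, genes of the extraembryonic layer that forms beside the epiblast, lay furthest below zero of the 22 lists in untreated RIP, by the median. Of 13 kept, 10 were lower and none higher, with a median of -1.94 in RIP, -1.41 in Adriamycin RIP and -1.38 in input. The summed level of the list was 36.9 FPKM in p53-/- RIP and 78.0 FPKM in p53+/+ RIP, and 62.5 FPKM in p53-/- input and 157 FPKM in p53+/+ input. Gata4, a zinc finger factor of endoderm, was at 0.833 FPKM in p53-/- RIP and 7.05 FPKM in p53+/+ RIP, and Sox7, an HMG-box factor of endoderm, at 0.822 in p53-/- and 6.25 FPKM in p53+/+. Both were under 1 scaled FPKM in every p53-/- library and were kept only through p53+/+ libraries. Such genes could not count as higher, so the counts of this list are partly built in. Dab2, an endocytic adaptor of this layer, was at 1.06 FPKM in p53-/- RIP and 6.22 FPKM in p53+/+ RIP. The laminin chains Lamb1 and Lamc1, which other cells also make, differed by -0.38 and -0.47.

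The genes of the 2-cell-like state, a rare state of embryonic stem cells that resembles the early embryo, were lower at the Zscan4 cluster. Of 14 kept, 5 were lower and none higher (median -0.33), and those 5 were Zscan4a, Zscan4b, Zscan4c, Zscan4d and Zscan4f, near-identical copies whose single values are uncertain. The list lay further below in the other pairs. Its median was -0.90 in untreated input with 6 lower, -0.99 in Adriamycin RIP with 7 lower, and -1.37 in Adriamycin input with 11 lower. Zscan4c was at 84.0 FPKM in p53-/- RIP and 184 FPKM in p53+/+ RIP, with inputs at 37.0 in p53-/- and 147 FPKM in p53+/+. The list took 0.0928% of the p53-/- RIP sum and 0.248% of the p53+/+ RIP sum, against 0.0323% of the p53-/- input and 0.111% of the p53+/+ input. Both genotypes thus held more of these transcripts in RIP than in input. The remaining members lay between -0.85 and 0.45 in untreated RIP.

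Targets of p53, genes that p53 switches on, were lower in the untreated p53-/- pool. Of 39 kept, 15 were lower by 1 or more and none was higher, with a median of -0.75 in RIP and -0.80 in input, where 13 were lower. After Adriamycin 33 were lower in RIP, with a median of -2.55. Trp53inp1, a stress-induced p53 cofactor, was at 1.35 FPKM in p53-/- RIP and 8.97 FPKM in p53+/+ RIP, and Ccng1, cyclin G1, at 6.54 in p53-/- and 23.8 FPKM in p53+/+. Eda2r, a death receptor of the tumour necrosis factor family, was at 0.196 FPKM in p53-/- RIP and 2.87 FPKM in p53+/+ RIP, and Zmat3, a zinc finger RNA-binding protein, at 2.75 in p53-/- and 8.96 FPKM in p53+/+. Eda2r was under 1 scaled FPKM in every p53-/- library and was kept only through p53+/+ libraries, so it could not count as higher. Mdm2, the ubiquitin ligase of p53, was at 95.4 FPKM in p53-/- RIP and 221 FPKM in p53+/+ RIP, a difference of -1.81 against -0.74 in input. Cdkn1a, which encodes the cell cycle inhibitor p21, was at 7.88 FPKM in p53-/- RIP and 5.91 FPKM in p53+/+ RIP, a difference of -0.18. The list took 0.162% of the p53-/- RIP sum and 0.275% of the p53+/+ RIP sum, of which Sulf2, whose estimate had a failed status in both libraries, was a large part: without failed records the shares were 0.128% in p53-/- and 0.205% in p53+/+ RIP.

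Zinc finger genes named Zfp, most of them transcription factors of unknown targets, were mostly lower where they passed 1. Of 289 kept, 4 were higher and 35 lower (median -0.20), together 13.5% against 9.37% of all genes, and in input 13 were lower. They took 0.846% of the p53-/- RIP sum and 1.02% of the p53+/+ RIP sum, more than the 0.369% of the p53-/- input and the 0.414% of the p53+/+ input. Many zinc finger genes are similar in sequence, and reads may be shared among them.

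Lists of RNA-binding proteins, ribosomes, the respiratory chain and the proteasome sat close to the median of all genes in RIP, and the signs of the hnRNP, ribosomal protein and respiratory chain medians against it depended on the scaling. Among 29 hnRNP genes none passed 1 in either direction, with a median of -0.08 and Tardbp, which encodes the RNA-binding protein TDP-43, furthest above at 36.3 FPKM in p53-/- RIP and 12.8 FPKM in p53+/+ RIP. Among 31 SR proteins and splicing regulators 1 was higher and none lower, namely Luc7l2, a U1-associated splicing factor, at 56.3 FPKM in p53-/- RIP and 16.6 FPKM in p53+/+ RIP. Of 83 respiratory chain genes 1 was higher and 1 lower (median -0.10), of 75 mitochondrial ribosomal protein genes 1 was higher (median 0.11), and of 38 proteasome genes 1 was higher (median 0.02). The proteasome gene was Psmb8, an immunoproteasome subunit, at 2.22 FPKM in p53-/- RIP and listed at 0 in p53+/+ RIP and in p53+/+ input. Cell cycle lists lay somewhat below in the untreated pairs, in RIP as in input, but not in the Adriamycin pairs. Of 28 G2/M genes 2 were lower and 5 lay above 0, with a median of -0.26 in RIP and -0.27 in input. Of 34 DNA replication genes 1 was lower and 5 lay above 0, with a median of -0.33 in RIP and -0.23 in input. Of all 11847 genes, 5452 lay above 0 in untreated RIP. After Adriamycin the G2/M median was 0.16 in RIP and 0.05 in input, and that of DNA replication genes 0.02 in RIP and 0.09 in input. Ccna2, cyclin A2, was at 251 FPKM in p53-/- RIP and 430 FPKM in p53+/+ RIP, a difference of -1.39 against -0.25 in input, and its locus overlaps Exosc9. Rrm2, a subunit of ribonucleotide reductase, was at 23.1 in p53-/- and 43.2 FPKM in p53+/+. Of 8 germ layer genes 1 was higher, the neural filament gene Nes, and 1 lower, the neural factor Sox1, with a median of 0.43 in RIP and 0.20 in input. The 3 kept Y-linked genes, Ddx3y, Uty and Eif2s3y, lay between -0.45 and 0.39.

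**Figure D4:**
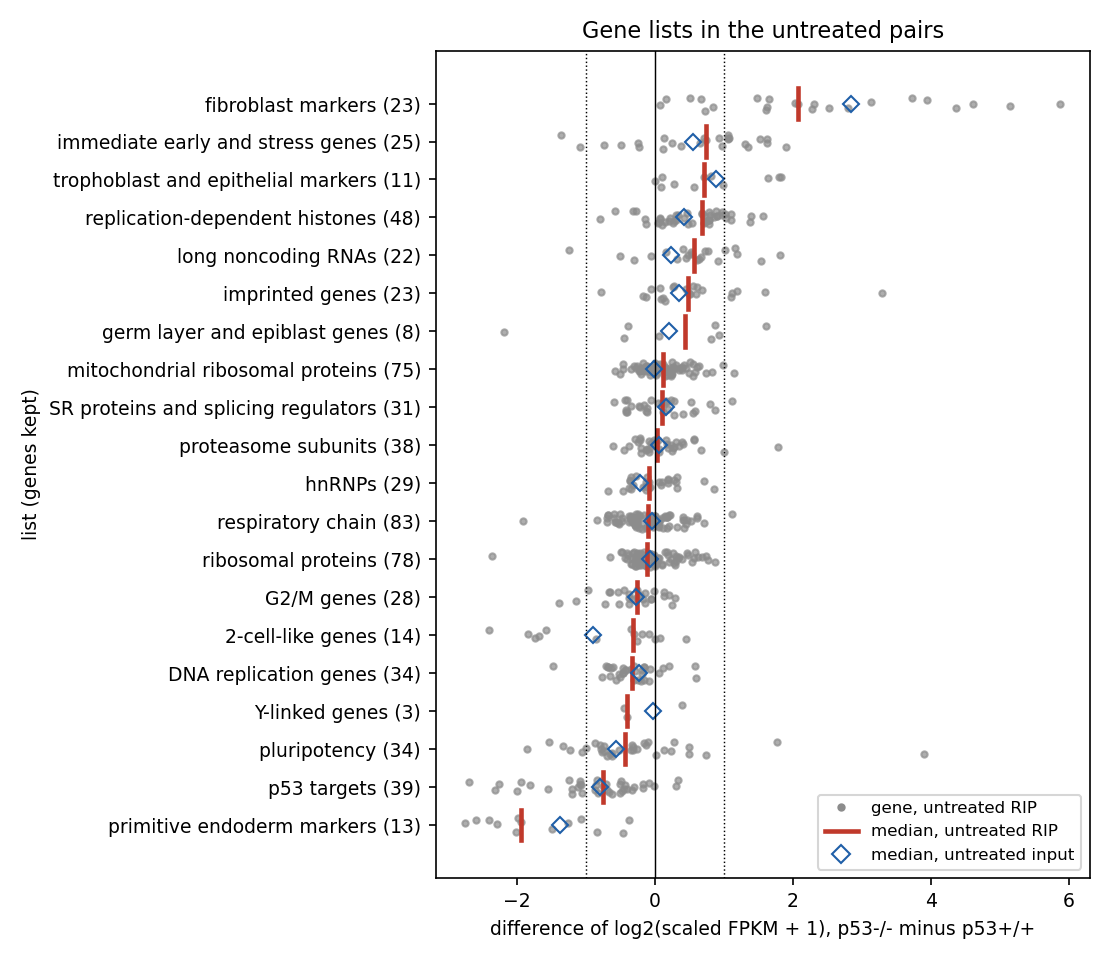
Difference of log2(scaled FPKM + 1), p53-/- minus p53+/+, for each kept gene of 20 lists in the untreated RIP pair (grey points), with the list's median in RIP (red bar) and in input (open blue diamond). Fibroblast markers (median 2.07) and primitive endoderm markers (median -1.94) form the ends, and in most lists the RIP and input medians lie close together.

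Some genes past 1 in RIP had an input difference near 0, a smaller share than among all genes, of which 9043 (76.3%) lay within 0.5 of 0 in the untreated input pair. Of the 465 higher genes, 96 (20.6%) lay within 0.5 of 0 there, and 50 of these were also past 1 in Adriamycin RIP. Of the 645 lower genes, 220 (34.1%) lay within 0.5 of 0 in input, and 171 of these were also past 1 in Adriamycin RIP. With both inputs at 1 scaled FPKM or more there were 63 such genes on the higher side and 107 on the lower. Zfp646, a zinc finger gene whose locus overlaps Prss53, was at 16.2 FPKM in p53-/- RIP and 2.48 FPKM in p53+/+ RIP, with inputs at 4.54 in p53-/- and 4.95 FPKM in p53+/+. Zfp280b, another zinc finger gene, was at 30.9 FPKM in p53-/- RIP and 5.15 FPKM in p53+/+ RIP, with inputs at 13.7 in p53-/- and 10.6 FPKM in p53+/+. For both, the input levels were near each other, and the RIP level over input was 5.27 in p53-/- and 1.12 in p53+/+ cells for Zfp646, and 3.33 in p53-/- and 1.09 in p53+/+ cells for Zfp280b.

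The other named genes of this kind had inputs under 1.1 FPKM. There the added 1 FPKM holds the input difference near 0 whatever the ratio, so they are not shown to be alike in input. Osr1, an odd-skipped transcription factor of mesenchyme and kidney, was at 4.86 FPKM in p53-/- RIP and 0.0672 FPKM in p53+/+ RIP, with inputs at 0.282 in p53-/- and 0.00505 FPKM in p53+/+. Bean1 was at 6.62 in p53-/- and 0.284 FPKM in p53+/+ in these RIP libraries, Havcr2, the immune receptor TIM-3, at 5.08 in p53-/- and 0.210 FPKM in p53+/+, and the homeobox gene Hoxc8 at 4.17 in p53-/- and 0.0923 FPKM in p53+/+. On the lower side, Tbx3os2, a noncoding RNA beside Tbx3, was at 15.6 FPKM in p53-/- RIP and 50.6 FPKM in p53+/+ RIP, with inputs at 0.435 in p53-/- and 1.01 FPKM in p53+/+. The RIP level was 53.2 times input in p53-/- and 112 times input in p53+/+ cells. Sox1, whose locus overlaps Sox1ot, was at 1.63 FPKM in p53-/- RIP and 6.99 FPKM in p53+/+ RIP. Pcdhgb7, a gamma protocadherin that shares exons with the other genes of its cluster, was at 12.3 in p53-/- and 50.4 FPKM in p53+/+, Rsph4a, a radial spoke protein of cilia, at 1.36 in p53-/- and 6.21 FPKM in p53+/+, and Frmd5 at 1.8 in p53-/- and 7.47 FPKM in p53+/+. AU040972, which overlaps Nf1, differed by -2.28.

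Among the genes kept, those hardly present in untreated input made up more of the p53+/+ pool. Such genes passed the filter only through their levels in RIP or Adriamycin libraries. With records under 300 bases left out, their share was largest in p53+/+ Adriamycin RIP, so the filter could favour genes high in p53+/+ cells. Their RIP shares and their counts by direction therefore depend on how they were kept and are no separate sign of a p53+/+ excess. Genes under 1 scaled FPKM in both untreated inputs, with records under 300 bases left out, took 0.558% of the p53-/- RIP sum and 0.808% of the p53+/+ RIP sum. In Adriamycin RIP they took 0.566% in p53-/- and 2.59% in p53+/+ cells. Of these 936 genes (7.90% of those kept), 98 were among the 645 lower genes (15.2%) and 35 among the 465 higher genes (7.53%). The share of material off the annotated records was again larger in p53+/+ RIP, and its part in this was not tested. Genes near absence in 1 library only were mostly on the other side. Short RNAs left out, 26 genes were at 5 scaled FPKM or more in p53-/- RIP and under 0.5 in p53+/+ RIP, and 3, Zfp750, Prmt8 and Nostrin, the reverse. The highest of the 26 included Itga11, Mgp, Col1a1, S100a4, Col1a2, Xlr5a and Xlr5c, already described above, so this count is not a separate result. Of the short RNAs, 7 were high in p53-/- alone by these bounds and 6 in p53+/+ alone.

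Short noncoding RNAs gave the largest single values but FPKM is unreliable for records shorter than a usual fragment. Records under 300 bases took 1.10% of the p53-/- RIP sum and 6.95% of the p53+/+ RIP sum. Most of that was Snord47, a small nucleolar RNA, listed at 0 in p53-/- RIP and at 12900 FPKM in p53+/+ RIP, with inputs at 0 in p53-/- and 14052 FPKM in p53+/+. It was listed at 0 in all 4 Adriamycin libraries. Snora33 was listed at 0 in p53-/- RIP and at 395 FPKM in p53+/+ RIP, but after Adriamycin at 354 FPKM in p53-/- RIP, against 325 FPKM in p53+/+ RIP. Snora64 was at 738 FPKM in p53-/- RIP and 889 FPKM in p53+/+ RIP. These records appear or vanish from library to library with no shared direction by genotype. Of 52 short noncoding RNAs kept, 11 were higher and 8 lower.

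Genotype differences also leaned by chromosome. Genes of chromosome 8 had a median difference of 0.31 in untreated RIP (658 genes, 73.9% above 0), and genes of chromosome 11 a median of 0.24 (1039 genes, 70.8% above 0). All other chromosomes together had a median of -0.10, with 41.7% of genes above 0. The same 2 chromosomes stood at 0.28 and 0.31 in Adriamycin RIP, at 0.34 and 0.27 in untreated input and at 0.29 and 0.31 in Adriamycin input, so the shift was in all 4 library pairs. Chromosome 1 lay lowest, at -0.27. Trp53 itself lies on chromosome 11. Copy number was not measured here, and the part of these shifts in the differences of single genes was not tested. With chromosomes 8 and 11 left out, 351 genes were higher and 604 lower.

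**Figure D5:**
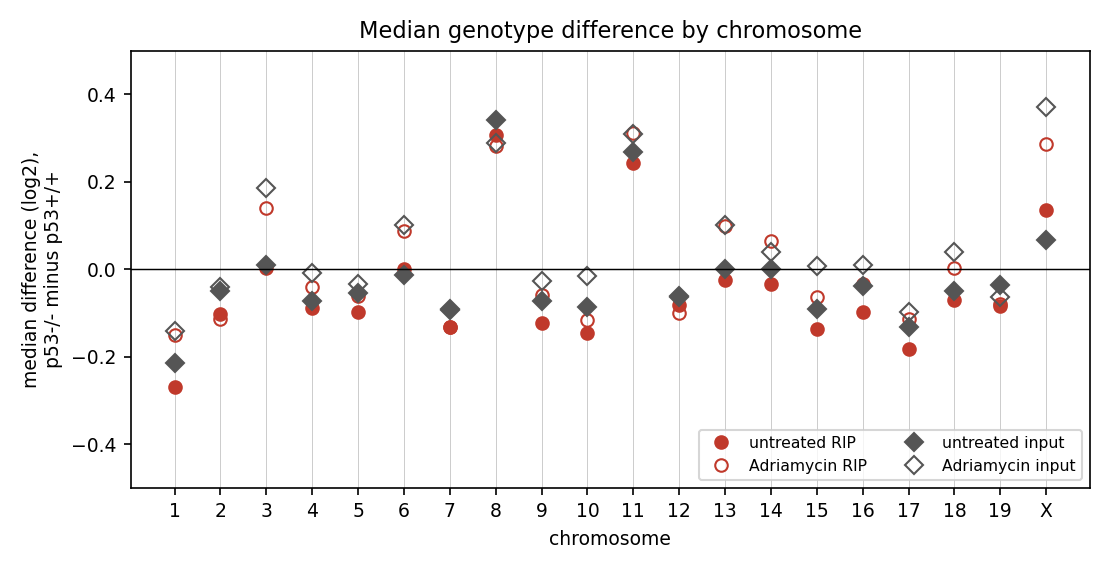
Median difference of log2(scaled FPKM + 1), p53-/- minus p53+/+, of the kept genes of each chromosome in the untreated and Adriamycin RIP pairs (circles) and input pairs (diamonds). Chromosomes 8 and 11 lie above the others in the untreated pairs, at 0.31 and 0.24 in untreated RIP, while chromosome X varies with treatment, at 0.14 in untreated and 0.29 in Adriamycin RIP.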

How the data were processed

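TruSeq libraries were sequenced by the authors, per the labels' protocols. The submitters' processing notes name CASAVA 1.8.2, Cufflinks, TopHat, TopHat2 2.0.8 and build mm9. The tool settings, the Cufflinks version and the FPKM denominator were not stated there or in the labels. Per the file headers, the authors deposited an FPKM for each transcript, with a lower and an upper bound. The deposited coverage, also by the authors per the file headers, was used only to estimate depth, with coverage times length summed. Each group held 1 library, so there is no replicate, no test and no p-value, and depth limits the low values most.

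Records were matched by accession to symbols of a GRCm38.p6 gene table (98.2% matched), used for names only, and 158 of the 11847 genes kept had no symbol. FPKM was summed per gene and scaled by the median ratio to the geometric mean library over 11749 genes above 0 throughout with a mean of 1 FPKM or more. Then 1 FPKM was added and log2 taken. Estimates with a failed status were kept. The steps were run on simulated libraries with little noise and large changes planted only in well-expressed genes, all of which had to be recovered. That run checks the code and says nothing of low genes, zeros in single libraries or the noise of real ones. Alternatives were pseudocounts of 0.1 and 5, FPKM as deposited, quantile, share and RIP-only scaling, a filter at 5 and none, and leaving out failed records. Scaling on every gene above 0, and leaving out chromosomes 8 and 11, were added after the data were seen.

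Members, lists and rules were chosen with earlier results of these data known. Genes were named by rule: the 10 a side with the largest difference in untreated RIP that were also past 1 in Adriamycin RIP; the 6 a side within 0.5 of 0 in input; the 10 with the largest share in each RIP library; and up to 4 per list. The Xlr copies and the other list members, short RNAs and genes given with values were named after these were seen. Python 3.11.15, pandas 2.3.3 and numpy 2.4.6 were used.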

Additional observations from a re-analysis of the deposited data

Results flagged for a closer look

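Snora68, a small nucleolar RNA on a record under 300 bases, moved in opposite directions in the untreated and the Adriamycin pair. It was listed at 0 in p53-/- untreated RIP and at 1077 FPKM in p53+/+ untreated RIP, and after Adriamycin the p53-/- RIP library had 9872 FPKM and the p53+/+ RIP library 2188 FPKM. The difference of log2(scaled FPKM + 1) was -10.84 in untreated RIP and 1.34 in Adriamycin RIP. The size of the first depends on the 1 FPKM added, since p53-/- is listed at 0. The difference between the treatments was not tested. Its inputs also disagreed, with 1230 FPKM in untreated p53-/- cells against 3737 FPKM in untreated p53+/+ cells, and 2292 FPKM in Adriamycin-treated p53-/- cells against 0 in treated p53+/+ cells.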

How the results depend on the processing

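Taken against the median of all genes, no named gene and no list median at 1 or more in size changed sign under the 10 alternatives that gave values. Some values nearer 0 did under 1 or more of them, among them Rpl4 and the medians of hnRNPs, ribosomal proteins, the respiratory chain, short noncoding RNAs and Y-linked genes. Of 1296 values for named genes 1211 stayed within 1.5-fold of the reported one and 85 did not, and of 218 list medians 211 did. Counts past 1 moved most, and the settings' own construction sets how many genes near 1 FPKM can pass. In untreated RIP (465 higher, 645 lower) a pseudocount of 0.1 gave 870 and 1006, one of 5 gave 141 and 296, FPKM as deposited 1457 and 184, share scaling 715 higher, and a filter at 5 FPKM 231 higher. In untreated input (369 and 289) the pseudocounts gave 678 and 621, and 122 and 73, and the filter 190 higher. In Adriamycin RIP (1042 and 1746) a pseudocount of 5 gave 431 and 1008, FPKM as deposited 3539 and 746, quantile scaling 1637 higher, and the filter 969 lower. The cause of the shifts with scaling was not tested. Against all genes, the fibroblast median was 4.47 at a pseudocount of 0.1, 0.85 at 5 and 3.21 with the filter. That of primitive endoderm markers was -0.74 at 5, -1.09 with the filter and -1.17 with none, and that of 2-cell-like genes -1.61 with the filter. By FPKM times length, shares in p53-/- and p53+/+ RIP were 12% and 10.4% for ribosomal proteins, 1.39% and 0.242% for fibroblast markers, 0.0515% and 0.259% for short RNAs, 26.9% and 26.4% for the top 100 genes, and 0.698% and 0.757% for Rpl29. The p53+/+ share of p53 targets was then 0.432%, and the p53-/- share of genes under 1 FPKM in both inputs 1.27%. Without records under 300 bases the share of genes under 1 FPKM in both inputs was 0.558% in p53-/- and 0.808% in p53+/+ RIP, and with them 0.606% in p53-/- and 1.53% in p53+/+. No paired analysis was possible because each group held 1 library. Depth and the lack of replicates limit all values, and low genes and near-identical copies most.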

Other observations

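A few genes differed between genotypes in opposite directions in the 2 RIP pairs, by 1 or more in each, and were picked for that. Polr2d, a subunit of RNA polymerase II, differed by -1.79 in untreated RIP and 1.92 in Adriamycin RIP, with input differences of 0.48 untreated and 1.4 after Adriamycin. Bcl3, an inhibitor-of-kappa-B family protein, differed by -1.08 in untreated RIP and 1.17 in Adriamycin RIP. Serpine2, a secreted protease inhibitor, was above in untreated RIP (1.02) and below in Adriamycin RIP (-2.22), and its inputs did the same (1.36 untreated and -1.94 after Adriamycin). In that order of the RIP pairs, Tsku (1.21 and -1.26), Ltbp2 (1.22 and -1.26), Lgals3bp (1.43 and -1.15), Nppc (1.11 and -1.16) and Adrb3 (1.07 and -1.12), most of them genes of secreted proteins, also changed side. Among the genes higher in untreated RIP 9, short RNAs included, and among the lower 4 were past 1 in the opposite direction, so such genes were few. The difference between the pairs was not tested.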
